A study of Homo sapiens with 6 samples.

Results

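The genes described here are the cytochrome P450 (CYP) family in HCCLM3, a human hepatocellular carcinoma (HCC) cell line. Members were the rows of the count table whose symbol is CYP followed by a digit. *CYP51A1* was left out, as would be any symbol ending in P and digits. This gave 55 of the 20381 genes in the table, the readthrough gene *CYP3A7-CYP3A51P* included. RNA-seq of poly(A) RNA was carried out on 3 libraries of cells infected with a lentivirus that carries the *PON1* coding sequence (PON1-OE) and 3 libraries of negative control cells (NC), which the design text of the series describes as carrying the empty vector. By that text the controls also received a lentivirus, which was not checked in the data. The sources differ on the serum content of the medium, and on whether the cells were stable puromycin-selected lines or were lysed soon after transfection. Neither clonality of the lines nor the origin of the replicates is stated, so n counts libraries and p-values measure the spread between these libraries, which may be technical.

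P450 enzymes are heme-thiolate monooxygenases that insert an oxygen atom into a substrate. Most sit in the endoplasmic reticulum and take electrons from POR, while a mitochondrial group, which includes CYP27A1, CYP27B1 and CYP24A1, takes them from FDXR through FDX1. Hepatocytes are the main site of drug-oxidizing P450s, and these enzymes are induced through ligand-activated factors such as the aryl hydrocarbon receptor (AhR, gene *AHR*) and the pregnane X receptor (gene *NR1I2*). Other members make or break down bile acids, steroid hormones, vitamin D, retinoids and fatty acid mediators.

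Libraries held 15706672 to 17948383 estimated counts. The overexpressed gene *PON1* was counted 0, 2 and 3 times in NC against 155, 181 and 167 in PON1-OE. With every NC library set to a floor of 3 counts, which none exceeded, the level in PON1-OE was 60.0-fold higher. This value leaves out the counting error of the NC counts and is not a lower limit. The labels call the cells hepatocytes. The hepatocyte nuclear factor *HNF4A* was present at 72.5 to 82.5 CPM (counts scaled to library size after TMM normalization, the unit used throughout) and the keratins *KRT8* and *KRT18* at 1459 to 2569 CPM, but of the secreted hepatocyte products *ALB* reached at most 0.762 CPM, and *APOA1*, *SERPINA1* and *TTR* were removed as too low to test. The remaining epithelial marker, *EPCAM*, had 2, 4 and 3 counts in NC against 0, 8 and 0 in PON1-OE and was also removed. Summed over 8 hepatocyte markers, the level was 103 to 109 CPM in NC against 102 to 108 CPM in PON1-OE, most of it *HNF4A*. Of the 5 that could be tested, 2 were higher and 3 lower in PON1-OE, and the median log2FC was −0.16. *APOB* had a log2FC of −0.36 (unadjusted p = 0.0456, adjusted p = 0.443 by edgeR) and *TF* one of −0.16 with every PON1-OE library below every NC library. *AFP* went the other way, with a log2FC of 0.88 (unadjusted p = 0.0750, adjusted p = 0.511 by edgeR), at only 0.221 to 1.10 CPM over the 6 libraries. Of the 4 fibroblast markers *LUM* and *DCN* could be tested (summed over the list 15.8 to 20.8 and 16.5 to 19.95 CPM), while *COL1A1* had at most 4 counts in a library and *COL3A1* at most 1. Of the 3 endothelial markers *PECAM1* could be tested (sum 13.3 to 13.8 and 14.1 to 16.4 CPM), with every PON1-OE library above every NC library (log2FC 0.21, unadjusted p = 0.0512). *VWF*, at 5 to 12 counts, and *CDH5*, at most 1 count in a library, were removed. Of the 3 blood markers *PTPRC* and *HBB* had a count of 0 in every library and *CD68* was at 206 to 226 and 224 to 248 CPM (log2FC 0.13, unadjusted p = 0.00943, adjusted p = 0.252). Whether these levels have a part in the values below was not tested.

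The promoters of 3 members are shown. They belong to *CYP1A1* and *CYP1A2*, neighboring AhR target genes of which *CYP1A1* was expressed and *CYP1A2* was not, and to *CYP2S1*, the member with the highest level per length. Each line gives the 250 bases before the transcription start, from RefSeq on GRCh38.p14, 5′ to 3′ on the strand of the gene. Capitals mark GCGTG, the core of the AhR binding element, searched on both strands (the reverse reads CACGC).
CYP1A1, chr15:74725529-74725778, minus strand: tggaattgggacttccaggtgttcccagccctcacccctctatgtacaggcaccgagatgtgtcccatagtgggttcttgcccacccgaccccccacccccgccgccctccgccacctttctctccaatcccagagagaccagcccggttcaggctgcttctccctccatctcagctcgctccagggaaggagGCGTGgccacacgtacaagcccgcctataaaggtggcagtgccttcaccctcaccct
CYP1A2, chr15:74748595-74748844, plus strand: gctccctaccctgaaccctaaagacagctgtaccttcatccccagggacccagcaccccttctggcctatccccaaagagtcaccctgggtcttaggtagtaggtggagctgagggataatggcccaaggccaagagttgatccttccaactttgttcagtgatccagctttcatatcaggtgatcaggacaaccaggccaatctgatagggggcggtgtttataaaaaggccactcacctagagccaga
CYP2S1, chr19:41192969-41193218, plus strand: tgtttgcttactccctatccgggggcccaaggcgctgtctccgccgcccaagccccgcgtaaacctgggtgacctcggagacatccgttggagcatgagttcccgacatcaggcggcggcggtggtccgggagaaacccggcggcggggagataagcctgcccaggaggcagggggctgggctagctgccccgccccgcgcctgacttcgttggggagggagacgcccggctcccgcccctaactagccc
The core was present 1 time in the *CYP1A1* window, 57 bases before the start, and was not found in the other 2 windows. A TATAAA box began 32 bases before the start in *CYP1A1* and 29 bases before it in *CYP1A2*. The core occurs in 32.2% of the 35116 promoter windows of this length, and TATAAA on the gene strand in 6.80%. Among the windows of CYP members, of which some have more than 1, the core was present in 10 of 52. Among those of expressed members it was present in 2 of 24, the *CYP1A1* window and a *CYP20A1* window that holds it 2 times. Of the 55 members 39 have a promoter in the table. The 24 windows belong to 14 of the 20 expressed members, several of them to *CYP19A1*. *CYP1B1* and *CYP2C18* have no window, so the core was not searched for in them. A match is a run of letters and not evidence of binding, and the windows are short.

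Of the 55 members, 20 were kept by edgeR's filter on low counts and are called expressed here. Another 15 were removed by the filter, of which 4 had more than 3 counts in some library, and 20 had a count of 0 in every library. A threshold of 1 CPM on the mean would keep 18 members, and one of more than 3 counts in every library 20. The floor of 3 counts corresponded to 0.166 to 0.192 CPM and covers counting error only, so a count of 0 means a level not detectable at this depth.

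**Figure D1:**
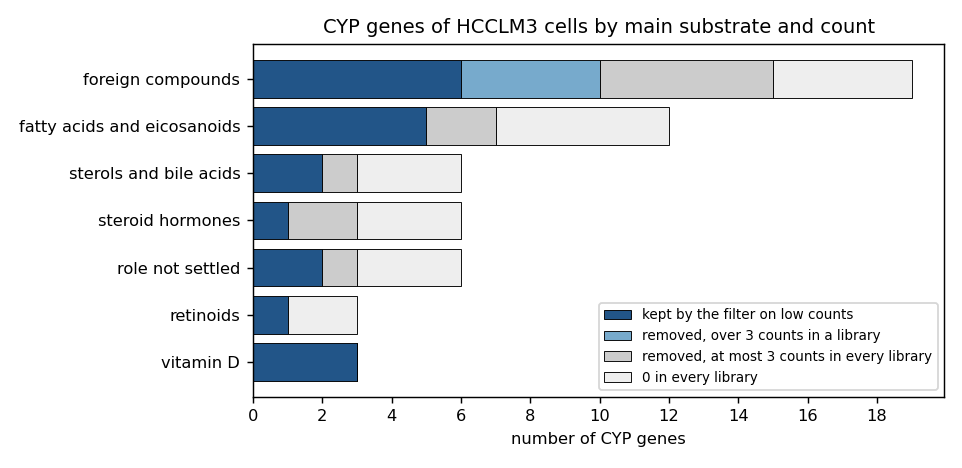
Number of CYP genes (horizontal axis) by main substrate (vertical axis, a hand-written grouping), with the shade giving how each gene was counted in the 6 libraries. Of 19 members that act mainly on foreign compounds 6 were kept, and all 3 vitamin D members were kept.

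Members were grouped by hand by main substrate, and the groups are described without a test. Among the 19 enzymes of foreign compounds, 6 were expressed, among them *CYP1B1*, *CYP1A1*, *CYP3A5*, *CYP2B6* and *CYP2C18*. The major drug-oxidizing enzymes of adult liver were at or near the floor. *CYP3A4* had 0, 1 and 0 counts in NC against 0, 2 and 0 in PON1-OE. *CYP2E1*, which oxidizes ethanol, had 0, 1 and 2 in NC against 4, 1 and 1 in PON1-OE. *CYP1A2* had a single count, in NC replicate 3, although it lies next to *CYP1A1*, with 23317 bases between their starts. *CYP2D6* had 3, 4 and 7 counts in NC against 4, 0 and 2 in PON1-OE, and *CYP2A6*, which oxidizes nicotine, had 0, 4 and 2 in NC against 0, 0 and 1 in PON1-OE. *CYP2C19* had 1, 0 and 2 counts in NC against 4, 2 and 4 in PON1-OE. Its groups did not overlap, but the counts are within 1 count of the floor or under it, and edgeR without the filter gave it an unadjusted p of 0.130. Reads of some of these genes can be shared with close relatives. Of the 31-base words in the annotated transcripts of *CYP2A6*, 48.2% also occur in another CYP gene, and for *CYP2D6* the share was 45.8%.

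Of 12 members that act on fatty acids and eicosanoids, 5 were expressed, *CYP4F11*, *CYP4F3*, *CYP4F12*, *CYP4V2* and *CYP2U1*. *CYP2J2*, an arachidonic acid epoxygenase, had at most 2 counts in any library, and *CYP4A11* and *CYP4F2*, the omega-hydroxylases of fatty acids, had 0. Among 6 members of sterol and bile acid metabolism, *CYP27A1* (sterol 27-hydroxylase, the first enzyme of the acidic bile acid route) and *CYP39A1* (24-hydroxycholesterol 7-alpha-hydroxylase) were expressed. *CYP7A1*, the rate-limiting enzyme of the classic bile acid route, *CYP8B1*, which sets the share of cholic acid, and *CYP7B1* had a count of 0 in every library. Of 6 steroid hormone enzymes *CYP19A1* (aromatase) was expressed. All 3 vitamin D enzymes were expressed, *CYP2R1* (25-hydroxylase), *CYP27B1* (1-alpha-hydroxylase) and *CYP24A1* (24-hydroxylase, which inactivates the hormone). Of the 3 retinoic acid hydroxylases *CYP26B1* was expressed, while *CYP26A1* and *CYP26C1* had a count of 0. In the remaining group, whose main substrate is not settled, *CYP2S1* and *CYP20A1* were expressed.

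Levels of different genes were compared per length, as CPM per kb of exon (union of the exons in GENCODE v29). In NC *CYP2S1* had the highest level at 32.4 ± 0.353 (SD, n = 3), followed by *CYP1B1* at 26.4 ± 2.22, *CYP27A1* at 20.7 ± 0.596 and *CYP1A1* at 12.3 ± 1.46. *CYP2C18* (7.58 ± 0.449), *CYP2B6* (5.91 ± 0.146), *CYP20A1* (5.00 ± 0.191), *CYP3A5* (4.55 ± 0.144) and *CYP4F11* (4.03 ± 0.171) formed a middle range. In the order of NC means the libraries of neighbors overlapped for *CYP4F12* and *CYP4F3*, for *CYP39A1*, *CYP26B1* and *CYP27B1* in sequence, and for *CYP19A1* and *CYP2U1*, the lowest at 0.104 ± 0.0391. Other neighbors among the genes named did not overlap. With the longest transcript as the length, the first 4 kept their places and *CYP3A5* moved from 8 to 5, so the order in the middle range depends on the transcript assumed. By counts, *CYP1B1* alone took 31.5% of the family total in NC against 28.7% in PON1-OE, as means over libraries.

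**Figure D2:**
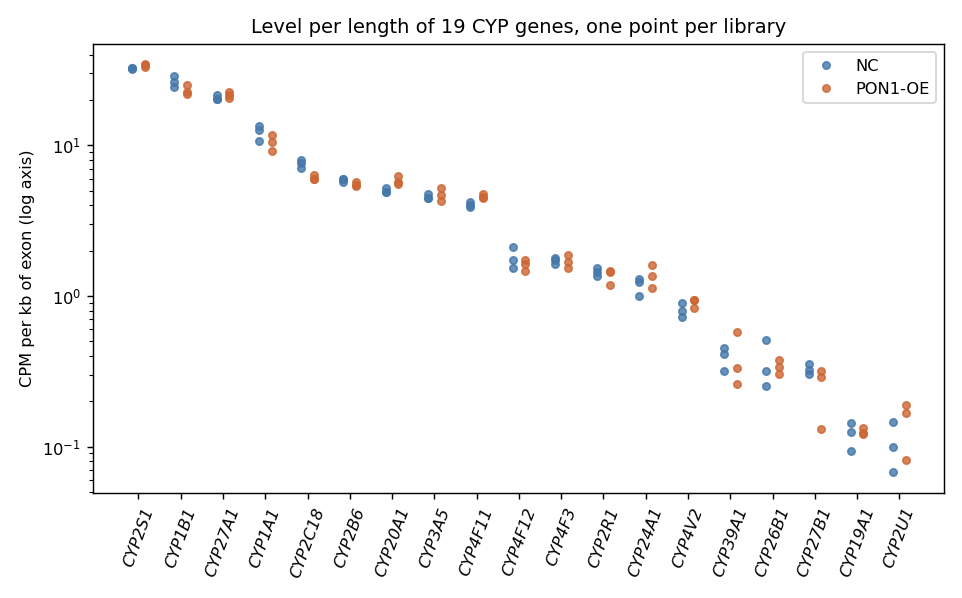
Level per length of 19 of the 20 expressed CYP genes in CPM per kb of exon on a log axis, with 1 point per library. Genes are ordered by their NC mean, from *CYP2S1* at 32.4 to *CYP2U1* at 0.104.

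The comparison of PON1-OE with NC asks whether raised *PON1* goes with a different level of any member. No member had a p under 0.05 after Benjamini-Hochberg adjustment across every gene tested by the edgeR quasi-likelihood test (0 of 20, against 0.677% of the 11958 genes tested, 0.502% higher and 0.176% lower). At an unadjusted p under 0.05 there were 5 of 20 (25%, against 11.1% of all genes tested), 3 lower in PON1-OE, *CYP2C18*, *CYP1B1* and *CYP1A1* (against 5.17% of all genes for the lower direction), and 2 higher, *CYP20A1* and *CYP4F11* (against 5.91%). The members were 10 higher and 10 lower (51.0% of all genes tested were lower), with a median log2FC of 0.017 against −0.0025 over all genes tested, and their log2FC lay between −0.40 and 0.48. Limma-voom also gave 0 members at an adjusted p under 0.05. DESeq2 gave an adjusted p for 3 of the 20 members (*CYP1B1*, *CYP2S1* and *CYP27A1*), none under 0.05, and none for the other members, which it could not call. At an unadjusted p under 0.05 DESeq2 had 3 members and limma-voom 5. Without NC replicate 2 the adjusted p of *CYP1B1* was 0.0425, and in the edgeR fit without the filter on low counts it was 0.0264, so in these 2 settings 1 member was called (without the filter 1 of 35 members against 1.14% of genes, with 4 of 35 at an unadjusted p under 0.05 against 9.95%).

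The smallest difference that the libraries could resolve followed the level. For 14 of the 20 members the 95% interval of the log2FC lay within 0.585 on both sides of 0, that is within a 1.5-fold change (86.0% of all genes tested). The interval was wider for the 6 members with the lowest counts, among them *CYP26B1*, *CYP39A1*, *CYP19A1*, *CYP27B1* and *CYP2U1*, so that for these a 1.5-fold difference could not be told from none.

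**Figure D3:**
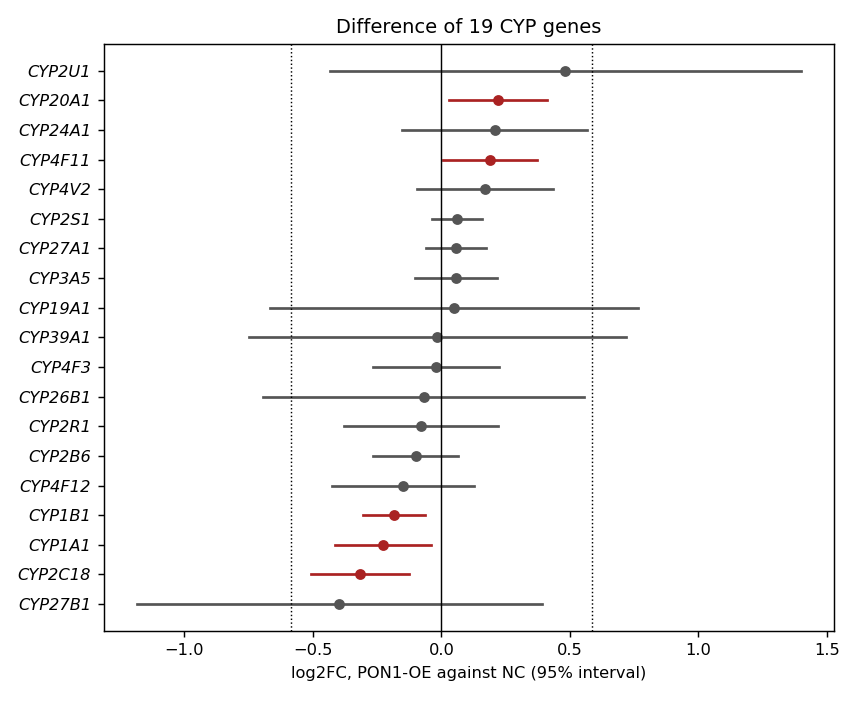
The log2FC of PON1-OE against NC (horizontal axis) for 19 of the 20 expressed CYP genes, with 95% intervals from the edgeR fit. Red marks an unadjusted p under 0.05 and dotted lines a 1.5-fold change. The 5 red genes lie between −0.32 and 0.22.

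*CYP1B1* and *CYP1A1* encode the enzymes that AhR induces most directly and that oxidize polycyclic aromatic hydrocarbons and estrogens. *CYP1B1* (ENSG00000138061, minus strand of chromosome 2 of GRCh38, 38066973 to 38109902 in GENCODE v29) was at 172, 146 and 159 CPM in NC replicates 1 to 3 against 152, 131 and 136 CPM in PON1-OE replicates 1 to 3. The PON1-OE libraries were mostly lower, but PON1-OE replicate 1 was above NC replicate 2. The log2FC was −0.19 (standard error 0.058, 95% interval −0.31 to −0.065, adjusted p = 0.193 and unadjusted p = 0.00440 by edgeR), 1.14-fold lower. Exons on the opposite strand overlap it (*RMDN2*, 96 bases, and *CYP1B1-AS1*, 678 bases), and the sources do not state whether counting used strand.

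*CYP1A1* (ENSG00000140465, minus strand of chromosome 15, 74719542 to 74725610) was at 46.3, 36.5 and 43.6 CPM in NC against 36.1, 40.5 and 31.3 CPM in PON1-OE. The groups overlapped, with NC replicate 2 below PON1-OE replicate 2. The log2FC was −0.23 (standard error 0.090, 95% interval −0.41 to −0.039, adjusted p = 0.344 and unadjusted p = 0.0204 by edgeR). NC replicate 2 had the lowest value of the control group for both genes. Without it the log2FC was −0.25 for *CYP1B1* and −0.32 for *CYP1A1*, and without NC replicate 1 it was −0.12 and −0.15. The unadjusted p of *CYP1B1* was 0.0572 without NC replicate 1, and that of *CYP1A1* was 0.134 without NC replicate 1, 0.0714 without NC replicate 3 and 0.152 without PON1-OE replicate 3. Together *CYP1A1*, *CYP1A2* and *CYP1B1* took 42.0%, 38.0% and 39.4% of the counts of the family in NC against 37.8%, 35.4% and 35.0% in PON1-OE.

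*AHR* itself was lower in every PON1-OE library, at 95.9, 103 and 96.6 CPM in NC against 88.8, 82.7 and 86.6 CPM in PON1-OE. Its log2FC was −0.20 (standard error 0.050, unadjusted p = 0.000766, adjusted p = 0.0833 by edgeR). Over the 13 alternatives run for *AHR* the adjusted p lay between 0.0294 and 0.256. It was under 0.05 only without the filter (0.0294) and in DESeq2 (0.0349). A gene model on the same strand, ENSG00000283321, shares 2373 exonic bases with *AHR* and had at most 5 counts, and with these counts added the log2FC was −0.20. *ARNT*, with which AhR binds DNA, had a log2FC of −0.025 with overlapping groups. Of the other AhR targets, *TIPARP*, *NQO1* and *ALDH3A1*, at 276 to 924 CPM, had log2FC values of 0.020, 0.019 and 0.0094, each with overlapping groups. *CYP2S1*, another gene known to respond to AhR, was at 93.3, 92.2 and 94.2 CPM in NC against 95, 97.9 and 99.0 CPM in PON1-OE, all PON1-OE libraries above all NC libraries. The difference was small (log2FC 0.061, 95% interval −0.035 to 0.16, adjusted p = 0.682 by edgeR).

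For *AHRR*, the AhR repressor and also an AhR target, the direction depended on the division of reads. Its own rounded counts were 58, 1 and 41 in NC against 64, 45 and 69 in PON1-OE (log2FC 0.92, adjusted p = 0.466), with the count of 1 in NC replicate 2. The readthrough gene *PDCD6-AHRR* had 31, 95 and 63 in NC against 0, 31 and 0 in PON1-OE. Summed, the counts were 89, 96 and 104 in NC against 64, 76 and 69 in PON1-OE, a log2FC of −0.36 (standard error 0.16, unadjusted p = 0.0341, adjusted p = 0.402 by edgeR). The sum, chosen after the values were seen, put every PON1-OE library below every NC library, while *AHRR* alone overlapped. The sum can also hold reads of the *PDCD6* part of the readthrough transcript.

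**Figure D4:**
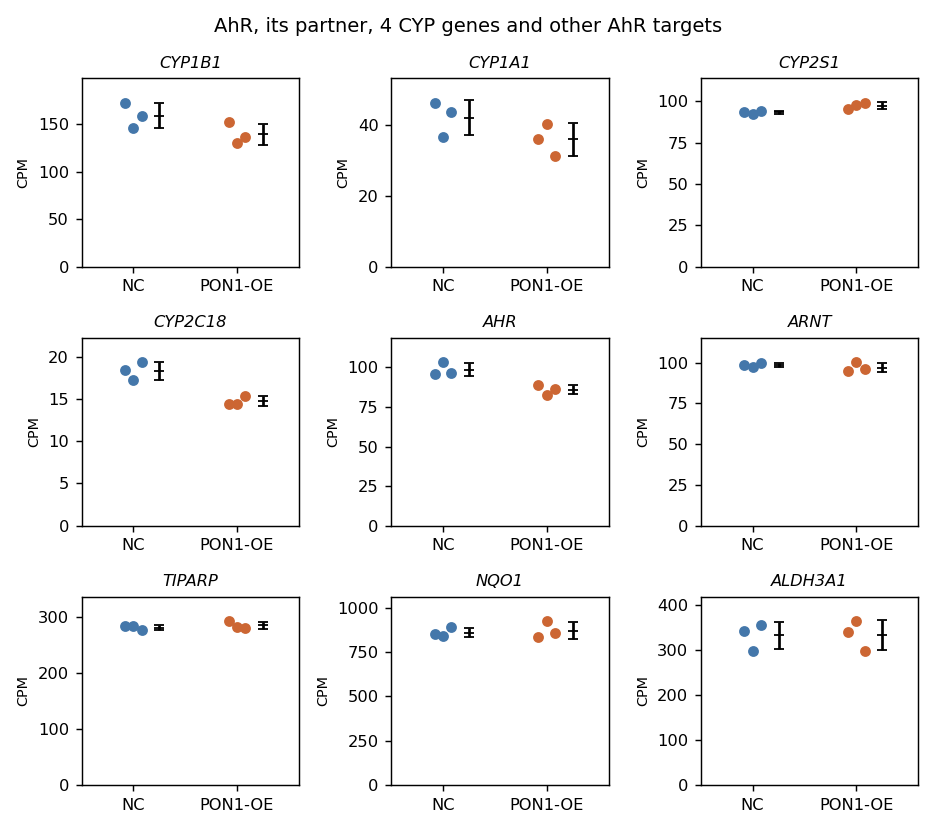
CPM (vertical axis, from 0) in each library of NC and PON1-OE, with the mean and SD (n = 3) beside the points. The genes are *CYP1B1*, *CYP1A1*, *CYP2S1*, *CYP2C18*, *AHR*, *ARNT*, *TIPARP*, *NQO1* and *ALDH3A1*. *CYP2C18*, the member with the lowest p, is not described here as an AhR target. The groups do not overlap for *AHR* and *CYP2C18*, which were lower in PON1-OE, and for *CYP2S1*, which was higher. Those of *CYP1B1*, *CYP1A1*, *ARNT*, *TIPARP*, *NQO1* and *ALDH3A1* overlap.

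*CYP2C18* (ENSG00000108242, plus strand of chromosome 10, 94683621 to 94736190), a CYP2C enzyme expressed mainly outside the liver, had the lowest p of the family. It was at 18.5, 17.2 and 19.4 CPM in NC against 14.4, 14.4 and 15.4 CPM in PON1-OE. Each PON1-OE library lay below each NC library, at 1.24-fold lower (log2FC −0.32, standard error 0.092, 95% interval −0.51 to −0.12, unadjusted p = 0.00248, adjusted p = 0.151 by edgeR). A 2-sided exact permutation test gave p = 0.1, the smallest that 3 libraries against 3 allow. The unadjusted p was under 0.05 in each of the 13 alternatives run for it (adjusted p 0.108 to 0.488, with none given by DESeq2), and the log2FC ranged from −0.36 to −0.27. A readthrough gene of the table, ENSG00000276490, shares 931 exonic bases with it but had at most 6 counts. With it added the log2FC was −0.32.

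The other CYP2 and CYP3 enzymes of foreign compounds differed less. *CYP2B6*, a target of the constitutive androstane and pregnane X receptors, was at 22.6, 21.6 and 22.5 CPM in NC against 20.5, 21.5 and 20.3 CPM in PON1-OE, all PON1-OE libraries below all NC libraries (log2FC −0.10, 95% interval −0.27 to 0.065, adjusted p = 0.702 by edgeR). Of its 31-base words 18.8% also occur in other CYP genes, mostly in the pseudogene *CYP2B7P*. *CYP3A5*, the only CYP3A gene over the filter, was at 30.3, 31.9 and 30.1 CPM in NC against 31.7, 35.3 and 29 CPM in PON1-OE (log2FC 0.057, adjusted p = 0.849).

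The 2 members with a higher level in PON1-OE at an unadjusted p under 0.05 had groups that did not overlap. *CYP20A1* (plus strand of chromosome 2, 203238940 to 203305611), an enzyme without an established substrate, was at 15.1, 15.0 and 16.1 CPM in NC against 16.9, 17.7 and 19.2 CPM in PON1-OE (log2FC 0.22, standard error 0.091, unadjusted p = 0.0260, adjusted p = 0.374 by edgeR). *CYP4F11* (minus strand of chromosome 19, 15912367 to 15934867), an omega-hydroxylase of long-chain fatty acids and vitamin K, was at 17.0, 16.1 and 15.6 CPM in NC against 18.3, 18.0 and 19.2 CPM in PON1-OE (log2FC 0.19, standard error 0.088, unadjusted p = 0.0423, adjusted p = 0.431). In all, 5 of the 20 members had groups that did not overlap, 3 higher and 2 lower in PON1-OE, a share of 25% against 16.1% of all genes tested (8.32% higher and 7.74% lower). The unadjusted p of *CYP4F11* stayed under 0.05 in 5 of its 12 alternatives and that of *CYP20A1* in 8 of 12. DESeq2 gave neither an unadjusted p under 0.05.

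Other CYP4 members were nearer to the spread between libraries. *CYP4F3*, which inactivates leukotriene B4, has 17.2% of its 31-base words in common with other CYP genes. *CYP4F3* was at 9.02 to 9.91 CPM in NC against 8.51 to 10.3 CPM in PON1-OE (log2FC −0.021). *CYP4F12* was at 8.18 to 11.3 CPM and 7.85 to 9.26 CPM (log2FC −0.15, adjusted p = 0.745). *CYP4V2*, the fatty acid hydroxylase mutated in Bietti crystalline dystrophy, was at 7.13 to 8.74 CPM in NC against 8.10 to 9.26 CPM in PON1-OE (log2FC 0.17, adjusted p = 0.680). *CYP2U1* had the highest log2FC of the family, 0.48, from 7 to 16 counts in NC against 8 to 19 in PON1-OE, with an interval from −0.43 to 1.40. It was 0.25 without NC replicate 3 or PON1-OE replicate 1, where it was no longer the highest, and 0.81 without NC replicate 2 or 0.77 without PON1-OE replicate 2.

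The sterol, steroid, vitamin D and retinoid members showed no difference past the threshold. *CYP27A1* was at 60.6, 61.0 and 63.9 CPM in NC against 67.3, 64.4 and 61.2 CPM in PON1-OE (log2FC 0.057, 95% interval −0.059 to 0.17, adjusted p = 0.780 by edgeR). *CYP24A1*, the main target of the vitamin D receptor, was at 4.0 to 5.16 CPM in NC against 4.50 to 6.39 CPM in PON1-OE (log2FC 0.21, interval −0.15 to 0.56). *CYP2R1* was at 6.08 to 6.92 and 5.36 to 6.64 CPM (log2FC −0.079). *CYP27B1* had 20, 19 and 19 counts in NC against 18, 16 and 7 in PON1-OE, and its log2FC of −0.40 became −0.099 without PON1-OE replicate 3. It shares 107 exonic bases with *METTL1* on the same strand. *CYP26B1*, *CYP39A1* and *CYP19A1* were at 0.787 to 2.54 CPM over the 6 libraries, with log2FC values of −0.069, −0.016 and 0.051 and overlapping groups.

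The genes that serve the family were taken from hand-written lists. Of 10 electron transfer partners all 10 were tested, 3 higher and 7 lower in PON1-OE, 0 with an adjusted p under 0.05 and 1 at an unadjusted p under 0.05 (edgeR, against 11.1% of all genes tested), *PGRMC2* (log2FC −0.13). Their log2FC lay between −0.13 and 0.062. *POR* was at 597, 585 and 585 CPM in NC against 593, 616 and 591 CPM in PON1-OE (log2FC 0.027, standard error 0.033). *FDX1* (log2FC −0.029), *FDXR* (−0.052) and *CYB5A* (−0.0057) had overlapping groups. Of 10 genes of heme synthesis and breakdown, all tested, 8 were higher and 2 lower, 0 with an adjusted p under 0.05 and 2 at an unadjusted p under 0.05 (against 11.1% of all genes tested). *PPOX*, protoporphyrinogen oxidase, was higher (log2FC 0.27, unadjusted p = 0.0264) and *UROD*, uroporphyrinogen decarboxylase, lower (log2FC −0.13, unadjusted p = 0.0441). The unadjusted p stayed under 0.05 in 7 of 12 alternatives for *PGRMC2* and *PPOX* and in 6 for *UROD*, whose log2FC was −0.073 without PON1-OE replicate 3. *ALAS1*, the rate-limiting enzyme of the pathway, had a log2FC of 0.057. *PPOX* overlaps *B4GALT3* on the opposite strand over 1118 exonic bases.

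Of 24 regulators of CYP transcription 20 were tested, 7 higher and 13 lower in PON1-OE, with a median log2FC of −0.076 against −0.0025 over all genes tested. None had an adjusted p under 0.05 in edgeR (0 of 20), and 6 had an unadjusted p under 0.05, all 6 lower (against 5.17% of all genes tested). They were *AHR*, the fatty acid sensor *PPARA* (log2FC −0.26, adjusted p = 0.226), the bile acid receptor *NR1H4* (log2FC −0.71, adjusted p = 0.212), the oxysterol receptor *NR1H3* (log2FC −0.30, adjusted p = 0.351), *CEBPA* (log2FC −0.15, adjusted p = 0.442) and *FOXA1* (log2FC −0.27, adjusted p = 0.443). Single libraries decided several of these. Without PON1-OE replicate 3 *NR1H3* was at −0.16 (unadjusted p = 0.183), and without NC replicate 1 its unadjusted p was 0.0591. *CEBPA* was at −0.090 without NC replicate 3 (unadjusted p = 0.248) and at −0.10 without PON1-OE replicate 1 (unadjusted p = 0.201), and without PON1-OE replicate 3 its unadjusted p was 0.0790. *FOXA1* was at −0.15 without NC replicate 2 (unadjusted p = 0.284) and had an unadjusted p under 0.05 in 4 of 12 alternatives. *NR1H4* had an unadjusted p of 0.0612 without NC replicate 3. *AHR* and *PPARA* kept an unadjusted p under 0.05 in every alternative run. *NR1H4* was at 3.45, 2.93 and 4.69 CPM in NC against 2.25, 2.13 and 2.36 CPM in PON1-OE, and *CYP7A1* and *CYP8B1*, which this receptor keeps down in hepatocytes, had no counts in either group. *NR1I2* was at 7.69 to 10.8 CPM in NC against 8.10 to 10.5 CPM in PON1-OE (log2FC 0.0089), *HNF4A* had a log2FC of 0.029, and *NR1I3*, the constitutive androstane receptor, had a count of 0 in every library.

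Among 11 bile acid enzymes outside the family 7 were tested, 2 higher and 5 lower, and 3 had an unadjusted p under 0.05, all lower (against 5.17% of all genes tested). These were *AKR1C4* (log2FC −0.44, adjusted p = 0.287), which has close relatives that can share its reads, *BAAT*, which conjugates bile acids to amino acids (log2FC −0.22, adjusted p = 0.372), and *SCP2* (log2FC −0.12, adjusted p = 0.445). The unadjusted p stayed under 0.05 in 11, 8 and 6 of 12 alternatives for these genes in that order. Of 13 vitamin D and retinoid genes 7 were tested, 2 higher and 5 lower. *DHCR7*, which turns the vitamin D precursor 7-dehydrocholesterol into cholesterol, rose (log2FC 0.31, standard error 0.066, adjusted p = 0.0277 by edgeR), at 78.6, 68.4 and 64.7 CPM in NC against 89.0, 93.2 and 81.0 CPM in PON1-OE. Its adjusted p was above 0.05 when NC replicate 2 (0.0670) or 3 (0.248) was left out, and likewise for PON1-OE replicate 1 (0.0831) or 2 (0.0846). *ALDH1A1*, a retinal dehydrogenase at 1021 to 1228 CPM in NC against 948 to 1067 CPM in PON1-OE, had a log2FC of −0.17 with overlapping groups (adjusted p = 0.177). Without NC replicate 2, again its lowest control, the adjusted p was 0.00567, and without the filter on low counts it was 0.00472. In other settings it was higher, 0.310 with the replicate block, 0.45 in DESeq2 and 0.598 without NC replicate 3, where the log2FC was −0.12.

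Summed over all 55 members, the family was at 521, 480 and 514 CPM in NC (mean 505 ± 21.8, SD, n = 3) and at 498, 484 and 479 CPM in PON1-OE (487 ± 9.64). The groups overlapped, with NC replicate 2 below PON1-OE replicates 1 and 2.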

How the data were processed

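Poly(A) RNA of 3 PON1-OE and 3 NC libraries was sequenced by the authors. The deposited table holds estimated counts per gene, not normalized, 10.5% of them not whole, which were rounded. The submitters' processing notes name Bowtie2 2.2.8, HISAT2, StringTie 1.3.1 and DESeq2. The genome build, the annotation and the strand setting are not given in the sources used here. Library totals were 15706672 to 17948383, and depth limits mainly the members under 3 CPM. Genes were filtered with filterByExpr, scaled by TMM and tested with the quasi-likelihood test of edgeR 4.0.16 in R 4.3.3, with Benjamini-Hochberg adjustment over 11958 genes. Standard errors and 95% intervals come from that fit. Alternatives were other size factors, other filters, a replicate block, DESeq2 1.42.0, limma-voom 3.58.1 and each library left out. The procedure was run on simulated data with the same dispersion for every gene. The planted changes were larger than those of the members at an unadjusted p under 0.05 by edgeR. The simulation therefore does not show the power for differences of that size. Exact permutation tests used log2(CPM + 0.5). All 55 members matched GENCODE v29 by identifier, which gave coordinates and lengths. Genes named are *PON1*, every expressed member but 1, which enters the counts but is not reported here by name, removed members with more than 3 counts in a library, genes of the pathway lists at an unadjusted p under 0.05, a fixed set of partners and regulators (*POR*, *FDX1*, *FDXR*, *CYB5A*, *AHR*, *NR1I2*, *NR1I3*, *HNF4A*) and *TBXAS1* and *PTGIS*. Others, such as further AhR targets, *ARNT*, *ALAS1*, markers and undetected members, were chosen after their values were seen. The members and lists were chosen with earlier results of these data known.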

Additional observations from a re-analysis of the deposited data

How the results depend on the processing

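The number of members with an adjusted p under 0.05 was 0 under the other size factors, the stricter filter, the replicate block, limma-voom and both fold thresholds, 0 of the 3 members to which DESeq2 gave an adjusted p, 1 without the filter on low counts (*CYP1B1*), and 0 to 1 with each library left out. The number at an unadjusted p under 0.05 was 3 in DESeq2 and 2 to 5 with a library left out, lowest without NC replicate 1 or PON1-OE replicate 3 (2 each) and 3 without NC replicate 2 or NC replicate 3. No sign of pairing by replicate number was seen over all genes (correlations of same-numbered deviations 0.030, −0.057 and −0.015, and no library correlated best with its own number). With 3 libraries per group this cannot exclude pairing, and the origin of the replicates is not stated. A replicate block gave 4 members at an unadjusted p under 0.05 and 0 adjusted. In it *CYP1B1* had an unadjusted p of 0.000508 and an adjusted p of 0.0846 by edgeR. With each library left out the log2FC changed sign, among the genes for which this was run and reported, for *CYP19A1* (−0.10 to 0.20), *CYP26B1* (−0.27 to 0.26), *CYP2R1* (−0.13 to 0.017), *CYP39A1* (−0.40 to 0.20), *CYP3A5* (−0.017 to 0.12), *CYP4F3* (−0.092 to 0.044), *CYB5A* (−0.060 to 0.030), *FDX1* (−0.089 to 0.021), *FDXR* (−0.19 to 0.095), *HNF4A* (−0.026 to 0.066), *NR1I2* (−0.11 to 0.16) and, among genes added after their values were seen, *ALDH3A1* (−0.063 to 0.085), *NQO1* (−0.024 to 0.054) and *TBXAS1* (−0.035 to 0.17). Adding *PDCD6-AHRR* turned *AHRR* to −0.36. *CYP27B1* and *CYP2U1* have no value under the filter of 10 counts in every library. The causes were not tested.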

Other observations

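P450 enzymes without a CYP symbol were *TBXAS1*, thromboxane synthase, and *PTGIS*, prostacyclin synthase. *TBXAS1* was at 14.3, 11.8 and 13.4 CPM in NC against 15.6, 13.9 and 11.7 CPM in PON1-OE (log2FC 0.063, adjusted p = 0.894 by edgeR), with overlapping groups. *PTGIS* was removed as too low to test, with 6, 11 and 14 counts in NC against 7, 4 and 6 in PON1-OE.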
